A study of Mus musculus with 6 samples.

Results

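The genes described here are 10 components of the Notch pathway in the mouse hippocampus: the transcription factor genes Hes1, Hes5, Hes6, Hey1 and Hey2, the receptors Notch1, Notch2 and Notch3, and the ligands Dll1 and Jag1. They were chosen by symbol, as genes of a pathway known for keeping neural stem cells, and all 10 were among the 22180 genes measured. Hippocampal total RNA of 3 Ahr-KO mice and 3 wild-type mice was measured on 6 whole-transcript arrays, each from a separate mouse. The gene Ahr makes the aryl hydrocarbon receptor, a transcription factor switched on by small ligands. The hippocampi came from hemibrains, and the labels give no further allele, no treatment and no age. The series title names neurogenesis among its subjects, and the comparison asks whether hippocampal RNA of these genes differs when the receptor gene is disrupted.

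Notch signalling passes between touching cells. A Delta-like or Jagged ligand on one cell binds a Notch receptor on its neighbour, and the receptor is then cut within the membrane so that its inner domain enters the nucleus and joins the DNA-binding protein RBPJ. The complex switches on Hes and Hey genes. Products such as those of Hes1 and Hes5 repress the proneural genes that start neuronal differentiation. In the dentate gyrus of the adult hippocampus this pathway keeps stem cells from differentiating all at once.

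The 6 arrays had medians between 5.79 and 5.85 log2 signal. RMA removes overall shifts between arrays, so like medians do not show that the samples were alike. Pairs of arrays correlated across genes at r = 0.9938 to 0.9959 (genes are not independent replicates). All 12 hippocampal neuron markers examined averaged at or above the median gene. Ahr read 6.62, 6.91 and 6.74 log2 on the Ahr-KO arrays, against 7.68, 7.50 and 7.44 on the wild-type arrays, with no overlap. The sources used here do not say which exons the allele lacks or which the probe set covers, so this signal need not check the labels. Choroid plexus genes were high on Ahr-KO array 1 and wild-type array 2, where the mean deviation of 10 such genes was 1.30 and 0.72 log2, against -0.57 to -0.44 on the other 4.

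Of the 10 genes, Hes5 alone had an unadjusted p under 0.05, with lower values in Ahr-KO, and none passed after adjustment over all genes (limma with Benjamini-Hochberg adjustment, lowest adjusted p = 0.770). Over all genes tested 0% passed after adjustment, 6.18% had an unadjusted p under 0.05 and 2.65% did so with lower values in Ahr-KO. A count of 1 in 10 genes is near that background. The mean was higher in Ahr-KO for 5 of the genes and lower for 5, and the median difference was -0.010 log2, beside 0.0019 over all genes tested. Ahr-KO and wild-type arrays were fully apart for 2 of the 10, Hes5 and Jag1, both lower in Ahr-KO. Of all genes 11.9% were fully apart, 6.18% with higher and 5.75% with lower values in Ahr-KO. An exact two-sided permutation test of 3 against 3 arrays cannot go below p = 0.1, so none is given for single genes. In whole hippocampus, fewer cells of a type and less RNA per cell cannot be told apart.

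**Figure D1:**
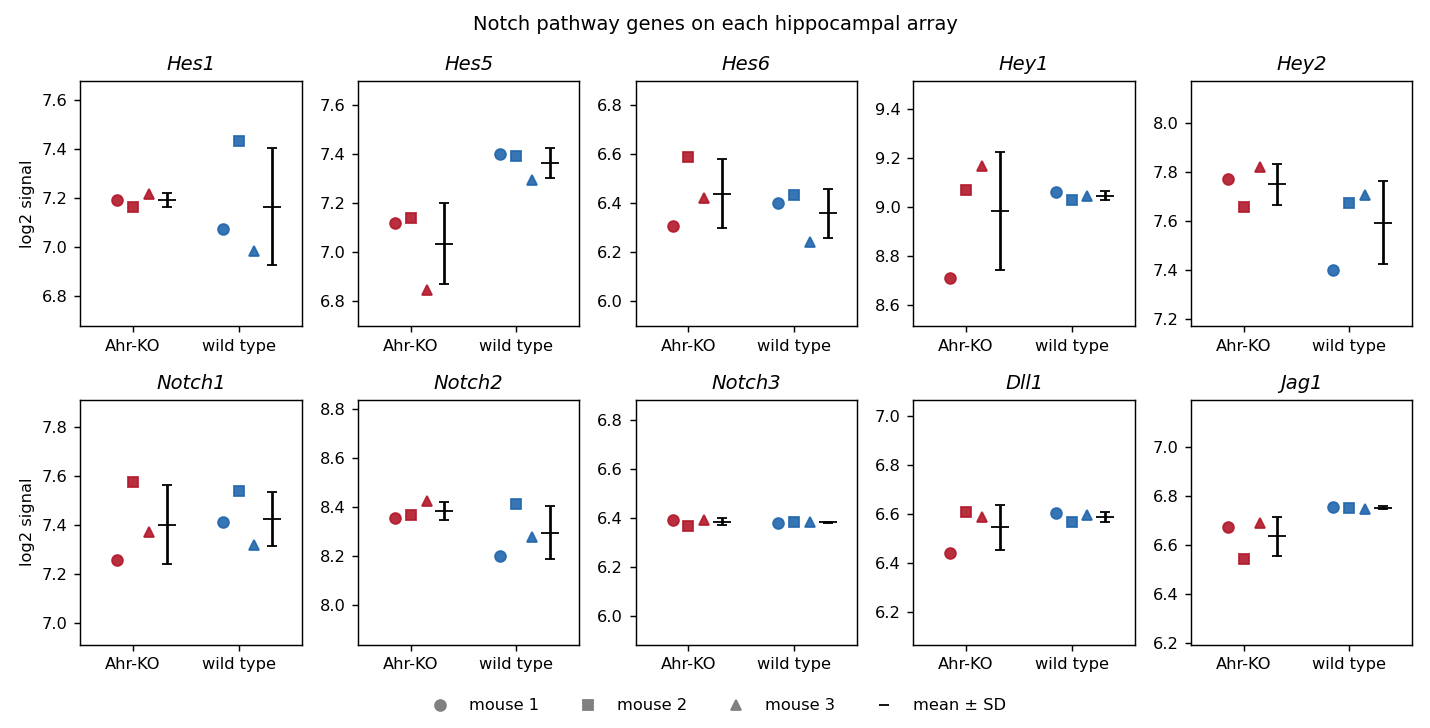
Log2 signal of each of the 10 genes in 3 Ahr-KO mice (left, red) and 3 wild-type mice (right, blue); points are single arrays, bars are the mean ± SD, and every panel spans 1 log2 unit around the mean of its gene. Hes5 and Jag1 are the genes whose 3 Ahr-KO values all lie below the 3 wild-type values, and Notch3 lies almost on one line.

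Hes5 encodes a basic helix-loop-helix repressor that Notch induces in neural stem cells, and it is also found in astrocytes. It read 7.12, 7.14 and 6.84 log2 on the Ahr-KO arrays, against 7.40, 7.39 and 7.29 on the wild-type arrays. The lowest value was on Ahr-KO array 3, and each wild-type array lay above each Ahr-KO array. The mean was 7.03 ± 0.16 in Ahr-KO and 7.36 ± 0.061 in wild type (SD, n = 3 each), 1.26-fold lower in Ahr-KO. The difference was -0.33 ± 0.10 log2 (SE; 95% interval -0.55 to -0.11), the 234th lowest p of the genes tested (limma, unadjusted p = 0.00882, adjusted p = 0.770). Without Ahr-KO array 3 it was -0.23. A second, dimmer Hes5 probe set differed by -0.13 (95% interval -0.35 to 0.091; limma, unadjusted p = 0.214) and overlapped between genotypes, with 6.01, 6.30 and 6.15 log2 in Ahr-KO and 6.38, 6.18 and 6.29 in wild type.

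Of all genes 0% passed after adjustment, and so no marker of the cells that use Hes5 did. At unadjusted p under 0.05, 1 of 15 stem cell and radial glia markers stood higher in Ahr-KO and 2 stood lower, beside 3.53% and 2.65% of all genes. Their mean deviation lay between -0.076 and 0.050 log2 on the Ahr-KO arrays and between -0.011 and 0.011 on the wild-type arrays. The 2 lower ones were Id3, which blocks DNA binding by helix-loop-helix partners (-0.32), and Fabp7, a fatty acid binding protein of radial glia and astrocytes (-0.34), and the higher one was Sox9, a glial transcription factor (0.24). Of 13 astrocyte markers 1 was higher, again Sox9, and 1 lower, the growth factor receptor Fgfr3 (-0.37), beside the same shares of all genes. Of the 15 stem cell markers 3 were higher on each Ahr-KO array than on each wild-type array and 2 lower. Of the 13 astrocyte markers 2 were higher and 1 lower in this way, beside 6.18% and 5.75% of all genes. On Ahr-KO array 3, where Hes5 was lowest, the mean deviation was 0.021 for the stem cell list and 0.047 for the astrocyte list, which has some markers in common with it. Whether these cells had a part in the Hes5 values was not tested.

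The stretch upstream of Hes5 is shown because Hes5 had the lowest p of the 10 genes and because it is a textbook target of RBPJ. The table of RefSeq promoters (GRCm38.p6) matched 8 of the 10 genes, with 10 entries, so Hes1 and Hey1 were not searched. The 250 bases before each start were searched on both strands for GTGGGAA, the core that RBPJ binds, and for GCGTG, the core which the aryl hydrocarbon receptor binds with ARNT. Capitals mark matches on either strand. The Hes5 stretch is chr4:154960673-154960922, plus strand.
Hes5: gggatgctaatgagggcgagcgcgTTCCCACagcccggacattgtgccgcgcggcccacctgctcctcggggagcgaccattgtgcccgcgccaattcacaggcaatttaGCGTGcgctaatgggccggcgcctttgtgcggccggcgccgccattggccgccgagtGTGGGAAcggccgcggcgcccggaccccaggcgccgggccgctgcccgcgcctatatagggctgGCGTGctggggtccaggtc
It held GTGGGAA once on each strand, beginning 226 and 83 bases before the start, and GCGTG at 140 and 19 bases before the start. Of 32851 promoter entries 5.42% held GTGGGAA at least once, and 28.2% held GCGTG at least once. The first motif stood in 2 of the 10 entries, those of Hes5 and Hey2. The second stood in 9 of the 10, or in 7 of the 8 genes, Notch1 being the exception. The 10 entries of these 8 genes were 56.0% to 72.0% G and C, against a median of 52.4% over all entries of the same length. A match is a run of letters and does not show binding.

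Hey2 and Hey1 encode Hairy-related repressors that Notch induces in stem cells and in the vessel wall. Hey2 read 7.77, 7.66 and 7.82 log2 on the Ahr-KO arrays and 7.40, 7.68 and 7.71 on the wild-type arrays. The means were 7.75 ± 0.084 in Ahr-KO and 7.59 ± 0.17 in wild type (SD, n = 3 each), a difference of 0.16 (95% interval -0.073 to 0.39), with overlap between genotypes. The low array was wild-type array 1, and without it the difference was 0.060. Hey1 read 8.71, 9.07 and 9.17 log2 in Ahr-KO, against 9.06, 9.03 and 9.05 in wild type. The wild-type values lay close together, while Ahr-KO arrays stood both below and above them. Hey1 differed by -0.063 (95% interval -0.33 to 0.21), and by 0.073 without Ahr-KO array 1, on which choroid plexus genes were highest and the mean deviation of 9 oligodendrocyte lineage genes was lowest (-0.24). The part of these other cells in the Hey1 value was not tested.

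The Hey2 stretch, chr10:30842784-30843033 on the minus strand, is given beside that of Hes5 as the other one with a match to GTGGGAA.
Hey2: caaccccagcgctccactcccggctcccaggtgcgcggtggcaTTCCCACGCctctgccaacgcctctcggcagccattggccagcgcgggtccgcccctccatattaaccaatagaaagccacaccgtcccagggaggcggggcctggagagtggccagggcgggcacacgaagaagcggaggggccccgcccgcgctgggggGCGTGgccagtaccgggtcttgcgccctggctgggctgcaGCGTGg
Its match lay on the opposite strand, beginning 207 bases before the start, and overlapped the first of 3 matches to GCGTG, the others beginning 46 and 6 bases before the start. Hes5 and Hey2, the 2 of the 8 searched genes with the RBPJ core, had differences of -0.33 and 0.16 log2. That of Hey2 lay within the spread between arrays. The part of RBPJ in these values was not tested.

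Hes1 and Hes6 did not differ beyond the spread between arrays. Hes1, the Notch-induced repressor that oscillates in neural progenitors, read 7.19, 7.16 and 7.22 log2 in Ahr-KO, against 7.08, 7.43 and 6.98 in wild type. The 3 Ahr-KO values lay inside the range of the wild-type values, with an SD of 0.028 in Ahr-KO and 0.24 in wild type. The difference was 0.027 (95% interval -0.24 to 0.29), and 0.16 without wild-type array 2, the other array with high choroid plexus genes. Hes6, which unlike Hes1 and Hes5 promotes neuronal differentiation, read 6.30, 6.59 and 6.42 log2 in Ahr-KO and 6.40, 6.43 and 6.24 in wild type, with overlap. It differed by 0.081 (95% interval -0.14 to 0.30) and averaged below the median gene, as did Notch3. Ahr-KO array 2 was the highest of the 6, and without it the difference was 0.0064, while without Ahr-KO array 1 it was 0.15.

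**Figure D2:**
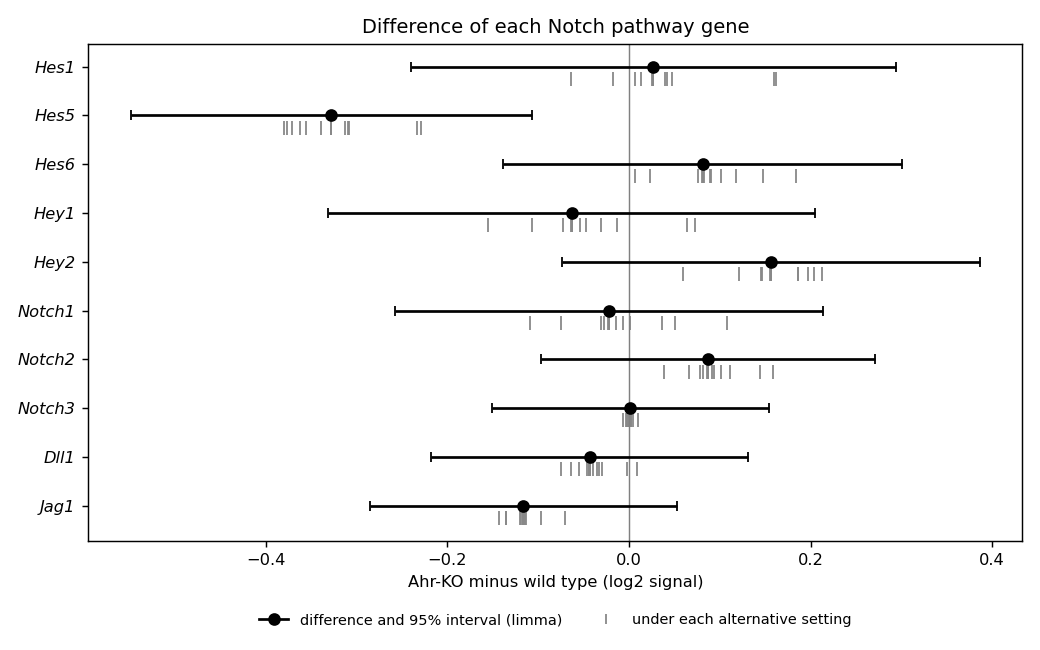
Difference between Ahr-KO and wild type (x axis, log2 signal) for the 10 genes, with limma's 95% interval as black bars and the value under each alternative processing setting as grey ticks. The dimmer probe sets of Hes5 (-0.13) and Dll1 (-0.045), chosen after seeing the data, have no tick of their own. The interval of Hes5, -0.55 to -0.11, is the one that does not include 0.

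The receptors are single-pass membrane proteins that carry the signal into the nucleus. Notch1, the main receptor of neural stem cells, read 7.26, 7.58 and 7.37 log2 in Ahr-KO and 7.41, 7.54 and 7.32 in wild type. The arrays of both genotypes were interleaved, and the difference was -0.022 (95% interval -0.26 to 0.21). Notch2, a receptor of quiescent stem cells and glia, read 8.35, 8.37 and 8.42 log2 in Ahr-KO, against 8.20, 8.41 and 8.28 in wild type. Wild-type array 2 lay among the Ahr-KO values and the other two wild-type arrays below them, for a difference of 0.087 (95% interval -0.097 to 0.27), and of 0.038 without wild-type array 1. Notch3, in the brain a receptor of pericytes and smooth muscle, read 6.39, 6.37 and 6.39 log2 in Ahr-KO and 6.38, 6.38 and 6.38 in wild type. Its difference was 0.0015 (95% interval -0.15 to 0.15), an interval far wider than the spread of its 6 values, because limma draws the variance of each gene toward that of all genes.

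Endothelial and mural markers, from the cells in which Notch3, Hey1, Hey2 and Jag1 are also found, had a median difference of 0.045 log2 over 19 genes. At unadjusted p under 0.05, 3 of the 19 stood higher in Ahr-KO and 0 lower, beside 3.53% and 2.65% of all genes. The 3 were Vwf, the von Willebrand factor (0.49), Tagln, a smooth muscle protein (0.38), and Slco1a4, an organic anion transporter (0.26). The mean was higher in Ahr-KO for 14 of the 19 and lower for 5, among them Cldn5 (-0.23; limma, unadjusted p = 0.052). On each Ahr-KO array 2 of the 19 were higher than on each wild-type array, and 1 was lower, Higd1b (-0.10). Of all genes 6.18% and 5.75% were apart in this way. The mean deviation of the 19 markers lay between 0.0031 and 0.095 log2 on the Ahr-KO arrays and between -0.070 and 0.0093 on the wild-type arrays. Their part in the values of the Notch pathway genes was not tested.

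The ligands both had lower means in Ahr-KO, within wide intervals. Jag1, the Jagged ligand, read 6.67, 6.54 and 6.69 log2 in Ahr-KO, against 6.76, 6.75 and 6.75 in wild type. The wild-type arrays lay between 6.75 and 6.76 and all above the Ahr-KO arrays, of which array 2 was lowest. The means were 6.64 ± 0.080 in Ahr-KO and 6.75 ± 0.0058 in wild type (SD, n = 3 each), a difference of -0.12 ± 0.074 (SE; 95% interval -0.28 to 0.052; limma, unadjusted p = 0.152). Without Ahr-KO array 2 it was -0.070. Dll1, the Delta-like ligand of neural progenitors and their daughter cells, read 6.44, 6.61 and 6.59 log2 in Ahr-KO and 6.60, 6.56 and 6.60 in wild type. Here Ahr-KO array 1 was lowest and the other 2 lay near the wild-type values, the difference being -0.043 (95% interval -0.22 to 0.13), and 0.0093 without that array. A second Dll1 probe set, whose values overlapped too, differed by -0.045.

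The stretch upstream of Jag1, chr2:137116521-137116770 on the minus strand, is shown because Jag1 was, with Hes5, the gene whose genotypes did not overlap.
Jag1: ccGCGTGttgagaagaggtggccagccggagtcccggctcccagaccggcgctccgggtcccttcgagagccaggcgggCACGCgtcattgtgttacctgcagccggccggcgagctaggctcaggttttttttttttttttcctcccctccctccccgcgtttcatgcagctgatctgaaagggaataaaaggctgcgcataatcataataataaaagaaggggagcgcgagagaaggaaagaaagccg
It held GCGTG at 248 and 171 bases before the start, the second on the opposite strand, and no GTGGGAA in this window. Hes5, Hey2, Jag1 and both Dll1 entries held 2 or more matches to GCGTG, 4 of the 8 genes. Of all entries 8.63% did, a share of entries rather than genes, over entries with a lower median of G and C (52.4%). Of these 4 genes, the mean in Ahr-KO was higher for Hey2 and lower for the other 3. For Hey2, Jag1 and Dll1 the unadjusted p was 0.156, 0.152 and 0.586 (limma). Among the searched genes with fewer matches, the mean was higher for Hes6, Notch2 and Notch3 and lower for Notch1. The part of the aryl hydrocarbon receptor in these values was not tested.

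Each of the 9 genes other than Hes5 had an interval that included 0. Their 95% intervals ran from -0.33 (Hey1) to 0.39 (Hey2) at the outer bounds, or from 1.26-fold lower to 1.31-fold higher in Ahr-KO, and their unadjusted p values from 0.152 to 0.983. Standard errors were between 0.067 and 0.12 log2 for all 10. A p that misses the threshold does not show that these genes were equal in both genotypes.

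**Figure D3:**
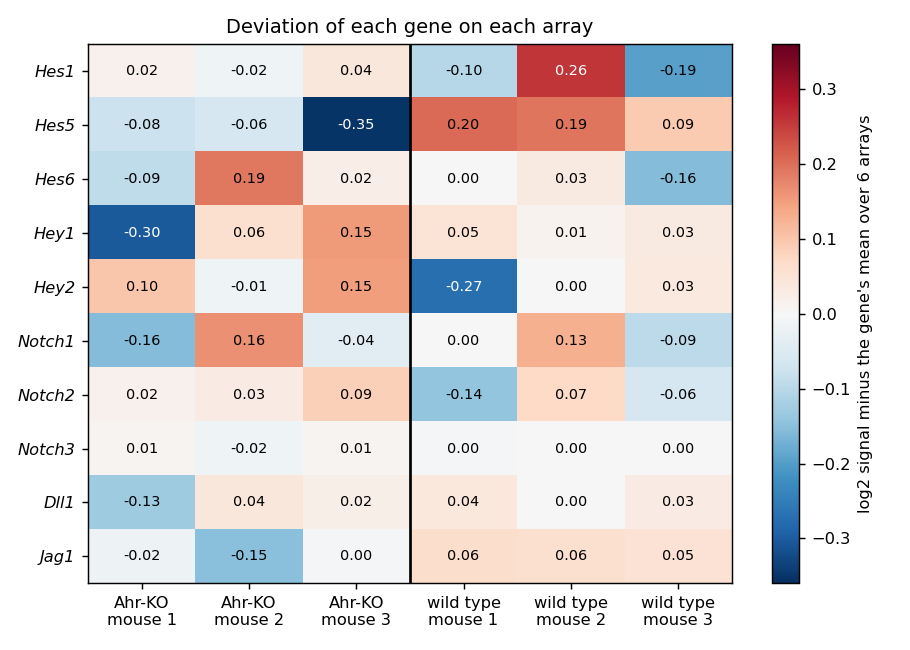
Deviation of each of the 10 genes (rows) on each array (columns) from the mean of that gene over 6 arrays, in log2 signal, with the value printed in each cell; Ahr-KO is left of the line and wild type right of it. The deepest cell is Hes5 on Ahr-KO array 3 at -0.35, followed by Hey1 on Ahr-KO array 1 at -0.30.

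The 10 genes did not share a pattern over arrays. Ahr-KO array 3 held the highest value of 4 of them, Hey1, Hey2, Notch2 and Notch3, and also the lowest value of 1, Hes5. Ahr-KO array 1 held the lowest value of 3, Hey1, Notch1 and Dll1. The median deviation of the 10 genes lay between -0.049 and 0.023 log2 on the Ahr-KO arrays and between 0.00062 and 0.046 on the wild-type arrays. Among the 11089 other genes at or above the median level, those with the pattern most like Hes5 over the 6 arrays were Prkar1b, a regulatory subunit of protein kinase A (Pearson r = 0.991), Ppp2r1b, a scaffold subunit of protein phosphatase 2A (0.987), and Mcf2l, a guanine nucleotide exchange factor (0.979). In all, 33 of these genes had r over 0.95, and the 6 arrays were normalized together, so these values only describe the arrays.

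The rest of the pathway was measured by 60 of 63 further listed genes, and none passed after adjustment, beside 0% of all genes. At unadjusted p under 0.05, 3 of the 60 stood higher in Ahr-KO and 1 lower, where all genes gave 3.53% and 2.65%. The median difference of the 60 was 0.0059 log2, beside -0.010 for the 10 genes and 0.0019 over all genes. Among 7 other receptors and ligands Dlk1, a non-canonical Delta-like protein, averaged 6.66 ± 0.085 in Ahr-KO and 6.31 ± 0.32 in wild type (0.35 ± 0.15, SE; limma, unadjusted p = 0.0443, adjusted p = 0.806), with overlap. Dll4, the Delta-like ligand of endothelial cells, differed by 0.17 (95% interval -0.039 to 0.37).

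Of 18 genes that modify and cut ligands and receptors 0 had an unadjusted p under 0.05. The nearest were Ncstn, the nicastrin subunit of the gamma-secretase that releases the inner domain (0.17; 95% interval -0.0057 to 0.34), and Mfng, a glycosyltransferase that tunes ligand choice (0.19; -0.039 to 0.42). Of the 18 genes 2 were higher on each Ahr-KO array than on each wild-type array, beside 6.18% of all genes. They were Ncstn, with means of 10.15 ± 0.068 in Ahr-KO and 9.99 ± 0.055 in wild type, and Aph1c, another gamma-secretase subunit, at 0.16. Aph1c and its relative Aph1b, at -0.098 and with overlap, were named after their values were seen. Of 9 inhibitors 0 had an unadjusted p under 0.05. Nrarp, a feedback inhibitor that Notch itself induces, was at 0.16 (-0.021 to 0.35) and the ubiquitin ligase Itch at -0.13 (-0.31 to 0.046). Of the 9, 1 was lower on each Ahr-KO array than on each wild-type array, Itch, and 0 were higher, beside 5.75% and 6.18% of all genes. Hes5 and Nrarp, both induced by Notch, had differences of -0.33 and 0.16, and Nrarp overlapped between genotypes. Whether Notch activity had a part in either value was not tested.

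Among 12 genes of the nuclear complex and its corepressors Snw1, a coactivator that binds the inner domain of Notch, averaged 8.87 ± 0.026 in Ahr-KO and 9.04 ± 0.041 in wild type (SD, n = 3 each; -0.17 ± 0.069, SE; limma, unadjusted p = 0.0347, adjusted p = 0.797). Cir1, a corepressor that binds RBPJ, differed by -0.16 (95% interval -0.33 to 0.0046). Of the 12 genes 3 were lower on each Ahr-KO array than on each wild-type array, beside 5.75% of all genes. They were Snw1, Cir1 and, named after its values were seen, Rbpj itself (-0.11). Of 6 other Hes and Hey relatives 0 had an unadjusted p under 0.05, with Bhlhe40 at 0.11 (-0.076 to 0.31) and Hes2 at 0.14 (-0.12 to 0.41).

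Proneural factors, the genes that proteins such as Hes1 and Hes5 repress, had 2 of 8 measured members higher at unadjusted p under 0.05 and 0 lower. Of all genes 3.53% were higher at that p. Neurog1 averaged 5.09 ± 0.077 in Ahr-KO and 4.86 ± 0.016 in wild type (0.23 ± 0.073, SE; limma, unadjusted p = 0.0135, adjusted p = 0.770). Atoh1 averaged 5.09 ± 0.10 in Ahr-KO and 4.81 ± 0.20 in wild type (0.28 ± 0.11, SE; limma, unadjusted p = 0.0394, adjusted p = 0.806). Both averaged below the median gene in both genotypes, and detection calls were not used here, so how far these levels lie above background is not known. The median difference of the 8 was 0.053 log2. On each Ahr-KO array 3 of the 8 were higher than on each wild-type array and 0 were lower, beside 6.18% and 5.75% of all genes.

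**Figure D4:**
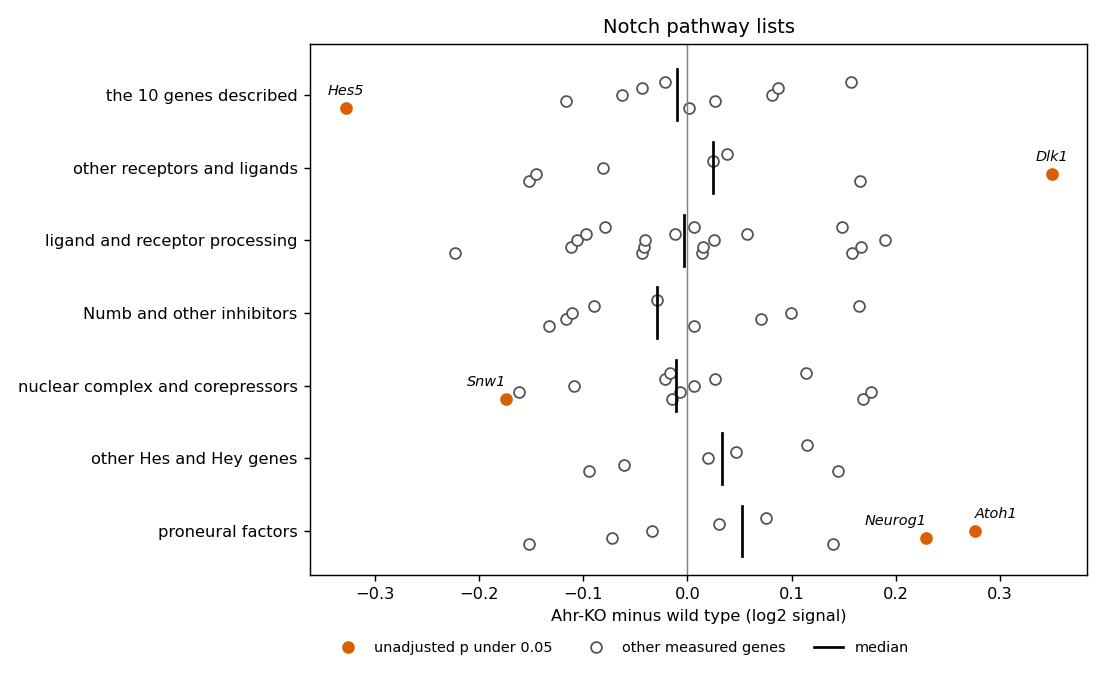
Difference between Ahr-KO and wild type (x axis, log2 signal) of each measured gene in the 10 genes described and in 6 lists of further pathway genes (rows); filled points have an unadjusted p under 0.05, open points do not, and vertical bars are medians. Named points are Hes5, Dlk1, Snw1, Neurog1 and Atoh1, and none passed after adjustment over all genes, of which 0% passed.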

How the data were processed

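Trizol extracts of 3 Ahr-KO and 3 wild-type hippocampi were labelled for Affymetrix whole-transcript arrays (GeneChip WT PLUS), per the labels' protocols. The authors deposited 1 log2 signal for each probe set on each array, for which RMA and Affymetrix Expression Console are named, without versions, per the submitters' processing notes. RMA removes overall shifts between arrays and tends to compress fold changes. Of 41345 rows, 23521 had 1 gene symbol in the platform annotation (1814 several, 16010 none). Symbols were updated by Entrez ID to RefSeq, which matched 23328. The brightest probe set per gene gave 22180 genes, with no filter on dim ones. Genotypes were compared in limma 3.58.1 (R 4.3.3, two-sided moderated test, no covariate, prior 4.33 and residual 4 degrees of freedom, Benjamini-Hochberg adjustment over all genes, threshold 0.05). The test was tried on simulated data. Differences are Ahr-KO minus wild type.

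The members, lists and alternatives were chosen with earlier results of these data known. All 10 members are named, with Ahr, the genes of each pathway list with an unadjusted p under 0.05 or the 2 with the lowest p, and the 3 genes most correlated with the member of lowest p. Single markers, and the dimmer probe sets, were named after their values were seen. Each array is of a separate mouse, per the labels, which do not say whether equal numbers pair mice. Deviations of arrays with equal numbers correlated at -0.15, -0.22 and 0.05. These 3 values were not compared with those of unequal numbers, so they cannot decide on pairing. Precision is limited by the number of arrays. Listed genes without a measured value were not analysed here. Figures were drawn with matplotlib 3.10.9.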

Additional observations from a re-analysis of the deposited data

How the results depend on the processing

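Over 17 alternatives (variance models, array weights, normalization, a filter on dim genes, the mean of probe sets, a replicate block, the choroid plexus genes as a covariate, and leaving out arrays) 1 of the 10 genes, Hes5, had an unadjusted p under 0.05 in each, and 0 passed after adjustment in any. Hes5 differed by -0.38 to -0.23 (unadjusted p = 0.00467 to 0.0315, adjusted p = 0.549 to 0.973, limma except for 1 setting without moderation). The replicate block gave the same counts of 1 and 0. Hey2, Notch2 and Jag1 kept their direction in all 17, and Hes6 in the 16 that included it, as the filter on dim genes left Hes6 and Notch3 out. With Ahr-KO array 1 and wild-type array 2, those high in choroid plexus genes, left out together, the median of the 10 genes was 0.086, and Hey1 differed by 0.064, Notch1 by 0.11 and Notch3 by -0.00165, each with the sign turned. With quantile normalization applied once more Notch1 differed by 0.00104 and Notch3 by -0.00613. Leaving out each array gave -0.051 to 0.038 for the median, -0.064 to 0.16 for Hes1, 0.0064 to 0.15 for Hes6, -0.16 to 0.073 for Hey1, -0.11 to 0.050 for Notch1, -0.0031 to 0.010 for Notch3 and -0.075 to 0.0093 for Dll1. The cause of these turns was not tested. The dimmer Hes5 probe set, an alternative chosen after seeing the data, gave -0.13. No detection calls were used, so what signal over background limits is not known.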
